A study of Mus musculus with 58 samples.

Results

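The balance between the maternal and the paternal allele was measured in extraembryonic ectoderm (ExE), the trophoblast tissue that borders the epiblast in the early postimplantation mouse embryo. RNA-seq libraries came from 2 control (CTR) samples of wild type genotype and from 4 samples labelled as double maternal knockout (matKO) of Pcgf1 and Pcgf6. All 6 carry the strain label B6.129 x PWK, read here as mother by father, so that reads over strain variants can be assigned to a parent. The sources used here do not give the driver of the deletion, the age of the embryos, how many were in a sample or whether samples shared a mother. The values are counts of maternal and paternal reads per gene, and the measure is the ratio of paternal to maternal reads. A gene was taken when it lay on an autosome and had at least 20 allele-assigned reads in each of the 6 libraries. This gave 6102 genes of the 24077 in the count table, of which 22988 were autosomal and 12622 had an allele-assigned read in ExE. Each library's ratio was scaled by its autosomal paternal and maternal totals, and the scaled paternal share is printed as a percentage, with 50% for equal use of both alleles. Morula libraries of the same cross and genotypes (2 CTR and 2 matKO) were used for comparison, over the 5050 genes that had 20 reads there too.

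The PCGF1 and PCGF6 proteins each define a variant form of Polycomb repressive complex 1 (PRC1), an enzyme that places ubiquitin on histone H2A. Polycomb repressive complex 2 (PRC2) trimethylates lysine 27 of histone H3. In mouse oocytes this mark is laid down over some genes and is inherited by the maternal allele of the embryo, which is then silent; this is called noncanonical imprinting and persists at a few genes in extraembryonic tissue. Canonical imprinting rests on DNA methylation set in the germ line. The series compared embryos with and without maternal Pcgf1 and Pcgf6 to ask how H2A ubiquitination guides the inheritance of the H3 mark.

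One library stood apart before any gene was tested. Autosomal genes had 48.6% and 48.6% paternal reads in CTR and 48.8%, 48.7% and 48.5% in matKO replicates 1, 2 and 4, but 64.9% in matKO replicate 3. The excess of replicate 3 covered all 19 autosomes, from 59.9% to 68.5%, while the other 5 libraries lay between 43.9% and 52.4% on each autosome. The group difference of 4.10 percentage points did not pass a two-sided exact permutation test (p = 0.6, smallest possible p = 0.0667), and it was 0.0465 points without replicate 3. After scaling, the median gene lay at 50.4% in replicate 3 and between 49.9% and 50.2% in the others. Single genes with 100 or more reads differed by a median of 2.52 points between the 2 CTR libraries and by 2.65 to 2.98 points between matKO libraries. X-linked genes are outside the set. They had 4.21% and 3.57% paternal reads in CTR, 0.146% and 0.154% in matKO replicates 1 and 4, and 43.1% and 38.8% in replicates 2 and 3. The difference of the means was 16.6 points (two-sided exact permutation p = 0.467). The matKO libraries lay on both sides of CTR, so this test of group means does not describe them. The X-linked gene Xist had 254 and 128 paternal reads in CTR, 138 and 244 in matKO replicates 2 and 3, and 0 in replicates 1 and 4. Its maternal reads were 20 and 7 in CTR and 62, 138, 36 and 21 in matKO. No Y-linked read was assigned to an allele in the ExE libraries, and the sex of the samples was not tested. Allele-assigned totals were 3397585 to 4361832 reads per library. With 20 reads a share of 50% has a 95% exact Clopper-Pearson interval of 27.2% to 72.8%, with 100 reads 39.8% to 60.2% and with 1000 reads 46.9% to 53.1%. Reads are not independent molecules, so these intervals cover counting error only.

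**Figure D1:**
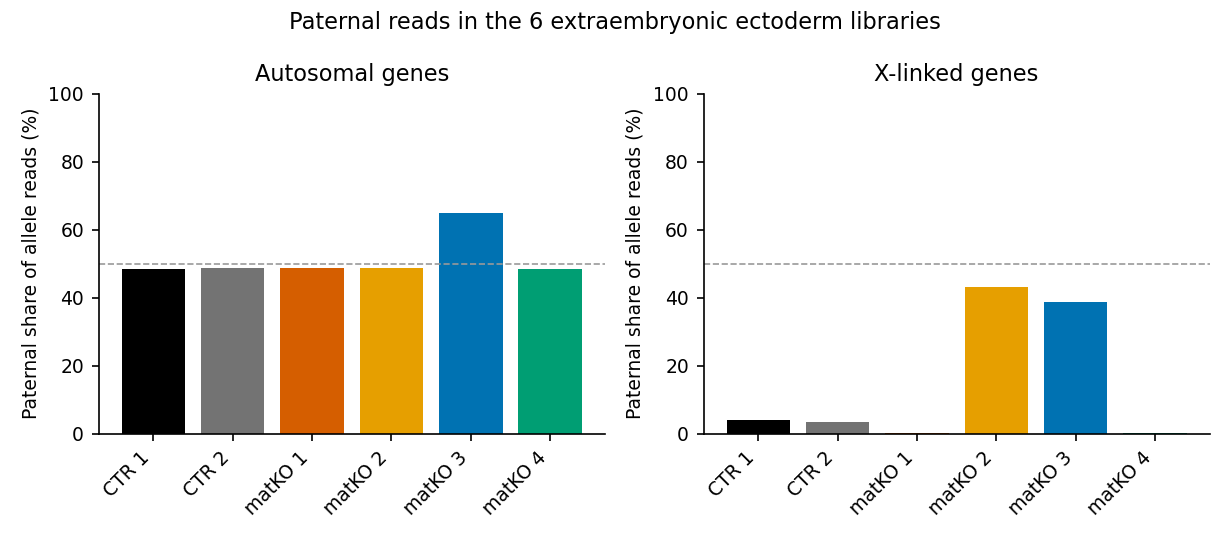
Paternal share of all allele-assigned reads (percent, unscaled) for autosomal genes (left) and X-linked genes (right), 1 bar per library, with a dashed line at 50%. The autosomal bar of matKO 3 reaches 64.9% while the others are at 48.5% to 48.8%; the X-linked bars of matKO 2 and 3 reach 43.1% and 38.8%.

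Marker genes were checked against the tissue label, in RPM (a gene's allele-assigned reads relative to the library's total). Only reads over strain variants are counted, so a gene without such variants is at 0 whatever its level. A 0 below therefore does not show that a gene was not expressed. The trophoblast factors Elf5 and Tfap2c were present in each library, and Bmp4 was the 1 of 20 ExE genes at 0 in all 6. Elf5 had 307 and 383 RPM in CTR and 411 to 529 in matKO. Tfap2c had 494 and 598 RPM in CTR and 157 to 404 in matKO. The summed level of the ExE list was 2788 and 2016 RPM in CTR and 3191 to 4602 in matKO. Its members did not all move with the sum, since Tfap2c was lower in each matKO library than in both CTR libraries. Id2 alone had up to 7629 reads in a library. The summed level of the 16 ectoplacental cone and later trophoblast genes was lower in matKO, with 4739 and 7295 in CTR and 1188 to 3920 in matKO. Gcm1 and Prl3d1 of this list were at 0. Blood genes summed to at most 0.733 RPM, with 12 of 13 at 0, the globins Hbb-bs and Hba-a1 among them. Genes of the decidua, the maternal tissue around the embryo, summed to 24.6 and 5.04 in CTR and to 17.0 to 60.1 in matKO. Hoxa10, Col3a1 and Dcn, which mark decidual stroma, were at 0, and Prl8a2 had 18.3 RPM in matKO replicate 1 and 0 in the other libraries. All 75 Prl8a2 reads of replicate 1 were maternal. Reads of the decidual list were 50% and 59.1% paternal in CTR and 19.1% to 47.6% in matKO, with the lowest share in replicate 1. Visceral endoderm genes summed to 456 and 367 RPM in CTR and 280 to 343 in matKO, with Apoa1 and Hnf4a at 0. This sum came mostly from Cited1, which is not autosomal and had 1019 to 1908 reads per library. No other member had more than 57 reads in a library. Amn, the member with that count, was higher in matKO, at 2.37 and 1.38 RPM in CTR and 3.78 to 13.9 in matKO. Parietal endoderm genes summed to 70.2 and 53.6 RPM in CTR and 93.5 to 197 in matKO. Epiblast and mesoderm genes summed to 153.6 and 139 RPM in CTR and 154.2 to 290 in matKO, with Pou5f1 at 0. The groups did not overlap in the summed level of 5 of these 7 lists, all but the blood and decidual ones, and their part in the allelic results was not tested. Fewer cells of a type and less RNA per cell cannot be told apart in such bulk samples.

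The 5 genes best known for noncanonical imprinting in the placenta were all in the set: Gab1, an adaptor of growth factor receptors, Sfmbt2, a Polycomb gene needed in trophoblast, Jade1, part of a histone acetyltransferase complex, Slc38a4, an amino acid transporter, and Smoc1, a secreted calcium-binding protein. Their promoters are shown because these genes are the ones the question of the series turns on, and because CpG content is a property by which canonical and noncanonical imprinted promoters are often described. The 250 bases before the RefSeq start site of 4 of them (GRCm38.p6, gene strand, 5′ to 3′) are printed in lower case with each CG dinucleotide in capitals; Gab1 lies at chr8:80880520-80880769 and Slc38a4 at chr15:97055957-97056206, both on the minus strand, Sfmbt2 at chr2:10370201-10370450 and Jade1 at chr3:41555484-41555733, both on the plus strand. The window follows the start site of the RefSeq promoter table, which for Sfmbt2 lies just inside the gene span given below.
Gab1: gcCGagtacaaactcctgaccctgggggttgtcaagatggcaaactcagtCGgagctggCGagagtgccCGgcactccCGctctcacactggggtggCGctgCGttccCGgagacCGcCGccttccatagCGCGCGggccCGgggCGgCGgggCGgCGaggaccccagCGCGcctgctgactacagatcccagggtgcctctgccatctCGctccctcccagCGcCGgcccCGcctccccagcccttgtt
Sfmbt2: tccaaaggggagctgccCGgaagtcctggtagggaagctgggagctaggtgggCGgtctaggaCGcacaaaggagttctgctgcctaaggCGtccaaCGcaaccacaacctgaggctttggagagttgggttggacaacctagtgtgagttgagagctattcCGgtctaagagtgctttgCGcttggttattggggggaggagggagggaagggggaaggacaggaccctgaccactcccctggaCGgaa
Jade1: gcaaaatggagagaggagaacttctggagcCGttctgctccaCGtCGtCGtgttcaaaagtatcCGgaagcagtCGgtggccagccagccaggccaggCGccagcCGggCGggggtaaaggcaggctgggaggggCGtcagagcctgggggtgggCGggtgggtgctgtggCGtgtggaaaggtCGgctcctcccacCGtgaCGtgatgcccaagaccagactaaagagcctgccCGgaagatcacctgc
Slc38a4: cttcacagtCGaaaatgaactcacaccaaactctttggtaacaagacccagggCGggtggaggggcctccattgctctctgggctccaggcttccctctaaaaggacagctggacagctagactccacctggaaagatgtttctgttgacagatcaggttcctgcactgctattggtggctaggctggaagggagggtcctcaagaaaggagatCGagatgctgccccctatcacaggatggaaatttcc
These windows hold 24 CG in Gab1, 8 in Sfmbt2, 16 in Jade1 and 3 in Slc38a4. The median over 4939 genes of the set with a RefSeq promoter was 17, and as many CG or more were found in 25.0% of them for Gab1, 89.1% for Sfmbt2, 58.0% for Jade1 and 97.9% for Slc38a4. The motif CG reads the same on both strands. The 4 promoters thus ran from few to many CG.

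Pcgf1 was close to unread, with no ExE library above 1 allele-assigned read, so its knockout could not be checked. Pcgf6 was counted on both alleles (chr19:47033617-47050939). Its maternal reads were 819 and 672 in CTR and 289, 310, 200 and 250 in matKO, against paternal reads of 430 and 484 and of 526, 397, 570 and 345. Its scaled paternal share was 35.7% and 43.2% in CTR and 65.7%, 57.5%, 60.7% and 59.5% in matKO, so that all 4 matKO libraries lay above both CTR libraries. This was a shift of 1.26 on the log2 scale towards the paternal allele (SE 0.14, edgeR quasi-likelihood test, Benjamini-Hochberg adjusted p = 1.93e-05). Maternal reads remained in each matKO library, and which exons were deleted is not stated in the labels. Without the scaling the Pcgf6 shift was 1.50 and did not pass (edgeR adjusted p = 0.192), the 1 of 20 alternatives in which the call was lost.

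Across the set, 5 genes passed at an adjusted p under 0.05 in edgeR (0.0819% of 6102), 2 towards the paternal allele (0.0328%) and 3 towards the maternal allele (0.0492%). An unadjusted p under 0.05 was found for 402 genes (6.59%). The groups of libraries did not overlap for 914 genes (15%), 431 of them with matKO towards the maternal allele (7.06%). The median shift was 0.0038, and no autosome had a median beyond −0.0315 or 0.0386. Of the other genes within 20 Mb of Pcgf6 and of Pcgf1, 96 and 90 were in the set, and 0 of either group passed (5 and 5 had an unadjusted p under 0.05). The 5 called genes were Thoc1, Pcgf6, Acaa2, Platr20 and Tmem50b. All 5 were also among the 13, 12 and 14 genes called without matKO replicates 2, 3 and 4, while only Thoc1 and Pcgf6 of the 5 were still called when CTR replicate 1 or CTR replicate 2 was left out.

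Thoc1, a subunit of the THO complex that couples transcription to mRNA export (chr18:9958180-9995484), had the clearest change. It had 4 and 3 maternal reads beside 114 and 169 paternal reads in CTR. In matKO it had 167, 181, 93 and 130 maternal beside 165, 157, 158 and 127 paternal reads. Its scaled paternal share was thus 96.8% and 98.3% in CTR and 50.9%, 47.8%, 47.9% and 50.9% in matKO. After scaling, the gene was read almost only from the paternal allele in both CTR libraries and about evenly from both alleles in all 4 matKO libraries (log2 shift −5.39, SE 0.35, edgeR adjusted p = 1.28e-11). Before scaling, Thoc1 was 62.9% paternal in matKO replicate 3. Its call held under each of the 20 alternatives of the fit. Thoc1 was on none of the imprinted lists, and in morulae its share was 61.1% and 48.5% in CTR and 52.5% and 48.4% in matKO.

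Platr20, a long noncoding RNA gene of the wider noncanonical list (chr11:51189833-51220418), moved the same way. It had 1 and 7 maternal beside 23 and 45 paternal reads in CTR, and 43, 27, 23 and 26 maternal beside 47, 33, 41 and 26 paternal reads in matKO. The share was 96.1% and 87.2% in CTR and 53.5%, 56.3%, 49.1% and 51.5% in matKO (log2 shift −3.01, SE 0.55, edgeR adjusted p = 0.0109). The call rests on few CTR reads and was lost in edgeR without CTR replicate 1 (adjusted p = 0.132) or CTR replicate 2 (adjusted p = 0.157). It was also lost in the DESeq2 Wald test (adjusted p = 0.124), and in edgeR without scaling (adjusted p = 0.122) or with X-linked genes (adjusted p = 0.0753).

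Acaa2, an enzyme of mitochondrial fatty acid oxidation (chr18:74779212-74806207), had a small shift at high depth. Its share was 53.1% and 53.9% in CTR and 41.0%, 45.2%, 41.4% and 46.9% in matKO, with at least 1103 reads per library (log2 shift −0.57, SE 0.10, edgeR adjusted p = 0.00474). Tmem50b, a transmembrane protein gene (chr16:91574508-91597680), went towards the paternal allele, from 60.1% and 63.2% in CTR to 71.2%, 69.5%, 70.3% and 70.3% in matKO (log2 shift 0.56, SE 0.11, edgeR adjusted p = 0.0271). In both genes all 4 matKO libraries lay on 1 side of both CTR libraries. Neither edgeR call held without CTR replicate 1 (adjusted p = 0.0945 for Acaa2 and 0.592 for Tmem50b) or CTR replicate 2 (adjusted p = 0.246 and 0.107), nor in the DESeq2 Wald test (adjusted p = 0.0683 and 0.512). The Tmem50b call was lost without matKO replicate 1 too (edgeR adjusted p = 0.103).

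**Figure D2:**
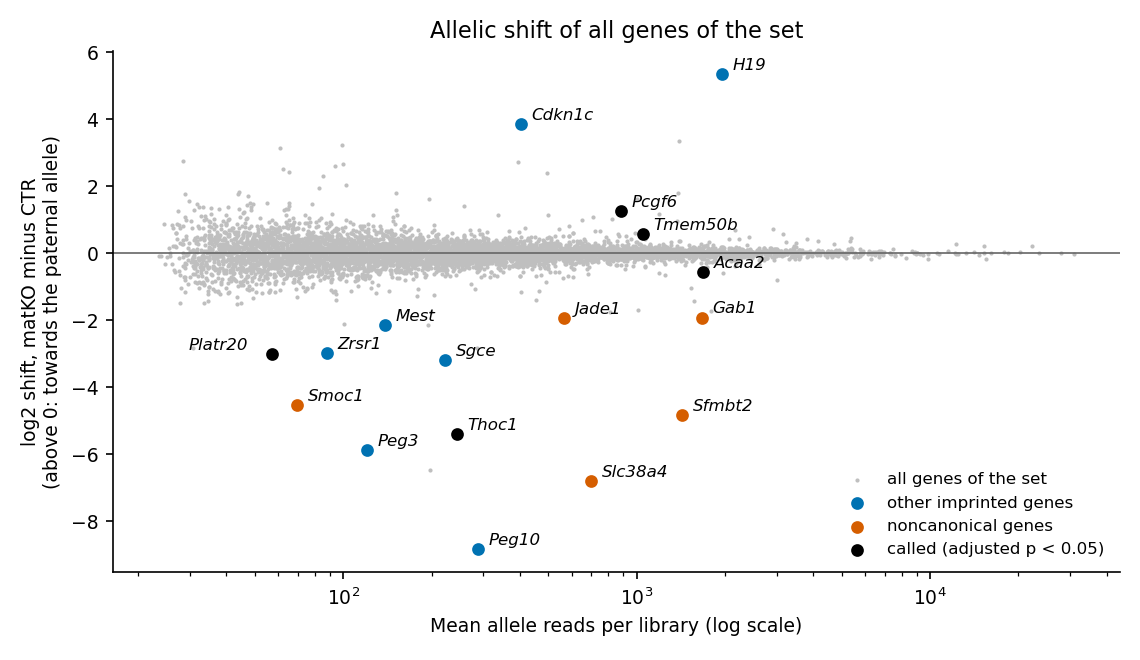
Fitted log2 allelic shift (vertical axis, matKO minus CTR, above 0 towards the paternal allele) against the mean number of allele-assigned reads per library (horizontal axis, log scale) for the 6102 genes of the set, with the 5 called genes in black, the 5 noncanonical genes in orange and 7 other imprinted genes in blue. Jade1 (−1.95), Gab1 (−1.92), Sfmbt2 (−4.83), Slc38a4 (−6.80) and Smoc1 (−4.54) lie below the cloud without passing the test; for genes with no maternal read in CTR (Peg10, Peg3, Zrsr1) the plotted value depends on the model's prior count.

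The 5 noncanonical genes all had a lower mean paternal share in matKO than in CTR, and 0 of 5 passed in edgeR over all genes (background 0.0819%), with an unadjusted p under 0.05 for Jade1 and Slc38a4 (background 6.59%). The groups did not overlap for 3 of them, Jade1, Slc38a4 and Smoc1 (background 7.06% towards the maternal allele). The median of their differences was −25.4 points, from −36.1 to −11.7, beside 0.0604 points for the 6102 genes. The matKO libraries differed from one another in which genes had maternal reads.

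Jade1 (chr3:41555734-41616864) had maternal reads in all 6 libraries. Its maternal reads were 79 and 125 in CTR and 411, 171, 296 and 346 in matKO, with 324 and 365 and with 343, 264, 415 and 252 paternal reads. The scaled paternal share was 81.3% and 75.5% in CTR and 46.7%, 61.9%, 43.2% and 43.6% in matKO. All matKO libraries were below both CTR libraries, and replicate 2 was the nearest to them. The log2 shift was −1.95 (SE 0.38, unadjusted p = 0.00295, edgeR adjusted p = 0.494). Jade1 passed in 4 of the 20 alternatives: without matKO replicate 2 (−2.16, adjusted p = 3.25e-11), in the DESeq2 Wald test (adjusted p = 2.25e-07), in edgeR without robust estimation (adjusted p = 0.00209) and with no filter on low counts (adjusted p = 5.06e-11).

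Slc38a4 (chr15:96994816-97055956) had 0 and 3 maternal reads in CTR, where 620 and 1010 reads were paternal. In matKO 399 of 590, 643 of 667, 762 of 881 and 360 of 433 reads were paternal, so that each matKO library had more maternal reads than both CTR libraries. The count of 0 in CTR replicate 1 allows a maternal share of up to 0.484% (3 of 620 reads). The scaled paternal share was 100% and 99.7% in CTR and 68.7%, 96.6%, 77.6% and 84.0% in matKO, again with replicate 2 nearest to CTR. The log2 shift was −6.80 (SE 2.08, unadjusted p = 0.0287, edgeR adjusted p = 0.721), and it passed in 4 of the 20 alternatives, among them the DESeq2 Wald test (adjusted p = 0.00779) and edgeR without robust estimation (adjusted p = 0.0233).

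Smoc1 (chr12:81026808-81186414) is a gene of few reads here. Maternal reads were 3 and 1 in CTR and 38, 12, 5 and 30 in matKO, and paternal reads were 81 and 80 and then 8, 45, 74 and 42. Its share was 96.6% and 98.8% in CTR and 18.1%, 79.8%, 88.9% and 59.8% in matKO. The matKO libraries thus ran from mainly paternal to mainly maternal, and replicate 1 alone was below 50% (log2 shift −4.54, SE 1.91, edgeR adjusted p = 0.795). Replicate 1 was also the library with the maternal Prl8a2 reads given above, and a link between the 2 was not tested.

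Gab1 (chr8:80764431-80880519) was not silent on the maternal allele in CTR: it had 187 and 345 maternal beside 1242 and 1321 paternal reads. In matKO the maternal reads were 551, 211, 912 and 1232, and the paternal reads were 983, 841, 1241 and 966. The share was 87.6% and 80.2% in CTR and 65.2%, 80.8%, 42.4% and 45.5% in matKO. Replicate 2 overlapped CTR, while replicates 3 and 4 had slightly more maternal than paternal use after scaling (log2 shift −1.92, SE 0.89, edgeR adjusted p = 0.844). Before scaling, Gab1 was 57.6% paternal in replicate 3, the library with the autosomal excess of paternal reads.

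Sfmbt2 (chr2:10370440-10595253) stood apart in 1 library. Its maternal reads were 3 and 3 in CTR and 3, 4 and 3 in matKO replicates 1, 2 and 3, but 1049 in replicate 4. Paternal reads were 1056 and 1069 in CTR and 1511, 1115, 1661 and 1112 in matKO. The share was 99.7% in each CTR library, 99.8%, 99.7% and 99.7% in the first 3 matKO libraries and 53.0% in replicate 4. The log2 shift of −4.83 (SE 5.10, edgeR adjusted p = 0.943) was −0.02 without that library.

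**Figure D3:**
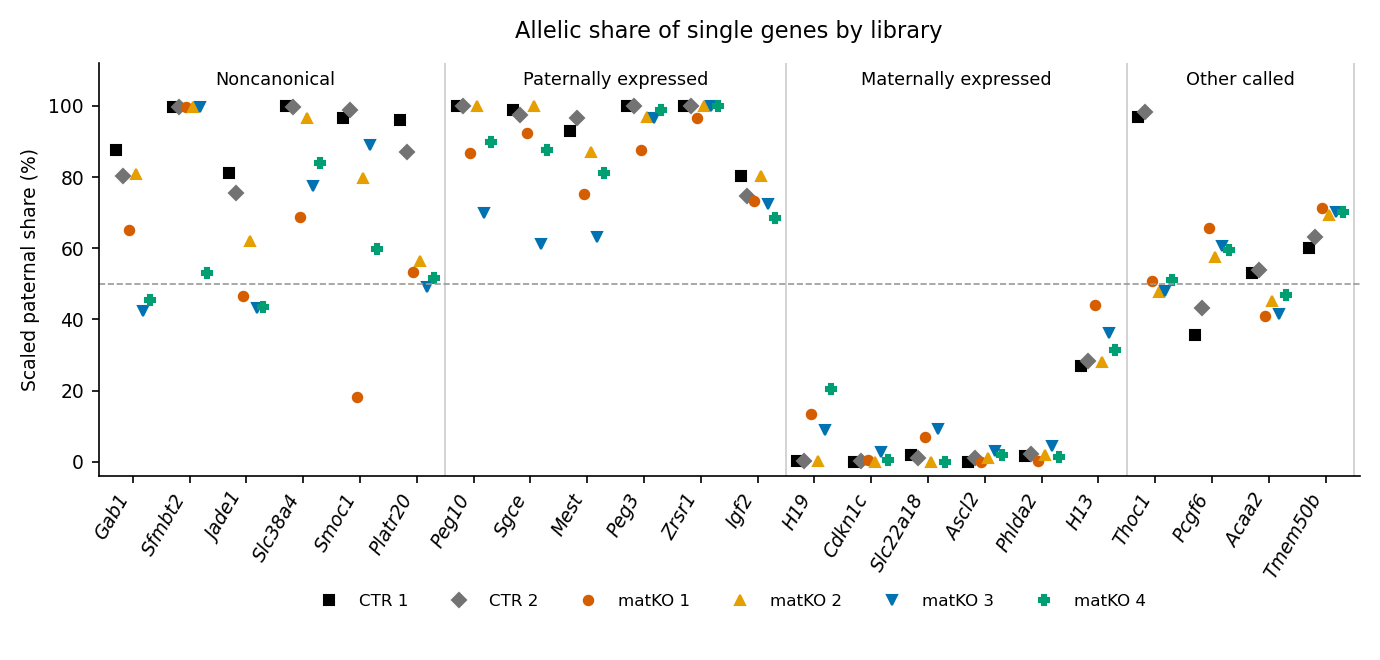
Scaled paternal share (percent) of 22 genes in each of the 6 libraries, 1 symbol per library, with a dashed line at 50%. For Thoc1, Platr20, Jade1, Slc38a4 and Smoc1 the 4 matKO symbols lie below both CTR symbols, for Sfmbt2 matKO 4 is at 53.0% and the other 5 libraries at 99.7% to 99.8%, and H19 has 3 matKO symbols above its CTR symbols.

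A wider list of 19 genes reported with maternal H3K27me3 had 7 members in the set, among them Bbx, an HMG box factor gene, and the Notch target Hes1. One of the 7, Platr20, passed towards the maternal allele (background 0.0492%), 4 lay towards the maternal and 3 towards the paternal allele, and the median difference was −1.33 points. Apart from Platr20 these genes were read from both alleles in CTR (37.7% to 63.2%). Rbms1, an RNA-binding protein gene, had 54.9% and 58.3% in CTR and 50.5% to 53.7% in matKO (log2 −0.24, SE 0.14, edgeR adjusted p = 0.848). Hes1 had 49.9% and 59.8% against 58.1% to 64.5%, and Mbnl2, a splicing regulator, 54.2% and 45.2% against 37.2% to 51.9%; both overlapped CTR.

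Genes listed as canonically imprinted and paternally expressed had 8 of 29 members in the set: Peg3, Peg10, Sgce, Mest, Impact, Zrsr1, Kcnq1ot1 and Igf2. All 8 had a lower mean paternal share in matKO, with a median of −4.41 points and a range of −18.2 to −0.858, and 0 of 8 passed in edgeR (background 0.0819%). Peg3 and Mest had an unadjusted p under 0.05 (background 6.59%), and the groups did not overlap for these same 2 genes (background 15%). Impact was read from both alleles in CTR (53.4% and 51.4%), so its direction says nothing of an imprint here. Kcnq1ot1 had 84.0% and 75.8% in CTR and 81.5%, 85.0%, 64.6% and 81.0% in matKO, below both CTR libraries in replicate 3 only. The summed marker levels given above differ between the same libraries, and their part in these values was not tested.

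Peg10, a retrotransposon-derived gene needed for the placenta, had 0 maternal reads in both CTR libraries, beside 276 and 456 paternal reads, which allows a maternal share of up to 1.09% and 0.658%. In matKO it had 28, 0, 81 and 17 maternal beside 175, 206, 349 and 144 paternal reads. Its neighbour on chromosome 6, Sgce (chr6:4674350-4747204, with Peg10 at chr6:4747306-4760517), had 3 and 5 maternal reads in CTR and 16, 0, 83 and 23 in matKO. The pair shares an imprinted domain, and both had their highest count of maternal reads in replicate 3 and none in replicate 2. The scaled paternal share in replicate 3 was 70.0% for Peg10 and 61.2% for Sgce (edgeR adjusted p = 0.848 and 0.911). Before scaling, Peg10 was 81.2% paternal in that library, and Sgce had 242 paternal beside 83 maternal reads.

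Mest, which encodes a hydrolase-like protein, had 6 and 1 maternal beside 74 and 28 paternal reads in CTR. Its matKO libraries had 79, 25, 33 and 19 maternal beside 227, 159, 105 and 77 paternal reads. The share was 92.9% and 96.7% in CTR and 75.1%, 87.0%, 63.3% and 81.2% in matKO, all below CTR (log2 −2.13, SE 0.67, edgeR adjusted p = 0.526). Peg3, a zinc finger gene, had 0 maternal reads in both CTR libraries (of 165 and 100 reads) and 15, 3, 3 and 1 in matKO (edgeR adjusted p = 0.494). Zrsr1 had 0 maternal reads in 5 of the 6 libraries and 4 of 111 in matKO replicate 1. Igf2, a growth factor gene, kept some maternal reads everywhere, with a share of 80.4% and 74.6% in CTR and 68.5% to 80.4% in matKO.

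Genes listed as imprinted and maternally expressed had 17 of 42 members in the set. Of these, 13 lay towards the paternal and 4 towards the maternal allele, the median was 0.914 points, and 0 of 17 passed in edgeR (background 0.0819%). An unadjusted p under 0.05 was found for 2, Cdkn1c and Slc22a18 (background 6.59%). The counts of direction include genes without a strong maternal bias in CTR. Mean CTR shares were 52.6% for Ube3a and 53.2% for Blcap, which lay towards the maternal allele. They were 47.2% for Copg2 and 42.6% for Commd1, which lay towards the paternal allele. H19, a long noncoding RNA, had the largest difference of group means among the 17 (10.5 points). It had 3 and 8 paternal beside 1995 and 2553 maternal reads in CTR, and 305, 2, 203 and 270 paternal beside 2080, 2095, 1105 and 1109 maternal reads in matKO. Its share was 0.159% and 0.330% in CTR and 13.4%, 0.101%, 9.05% and 20.6% in matKO. Replicates 1, 3 and 4 were above both CTR libraries and replicate 2 was below them (log2 5.34, SE 2.40, edgeR adjusted p = 0.828).

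On distal chromosome 7, Cdkn1c, a cyclin-dependent kinase inhibitor, had 0 and 1 paternal reads in CTR and 1, 0, 16 and 1 in matKO. Slc22a18, a transporter gene of the same domain, had 2 and 2 in CTR and 2, 0, 11 and 0 in matKO. Ascl2, a transcription factor of the ectoplacental cone, had 0 and 22 and then 0, 6, 43 and 15. Phlda2, a growth-restraining placental gene, had 123 and 259 in CTR and 5, 70, 341 and 20 in matKO. Its maternal reads were 7462 and 12677 in CTR and 1468, 3834, 4039 and 1651 in matKO. The mean scaled paternal share of Phlda2 was thus 1.92% in CTR and 1.97% in matKO. Maternal levels of all 4 genes are given below. For all 4 the highest paternal count among matKO libraries was in replicate 3, the library with the autosomal excess of paternal reads, and without it the shift was 1.82 for Cdkn1c, 0.51 for Slc22a18, 0.99 for Ascl2 and −0.50 for Phlda2. None of the 4 passed with or without that library. H13 was less biased, with 27.05% and 28.2% paternal in CTR and 44.0%, 28.1%, 36.1% and 31.4% in matKO (log2 0.50, SE 0.27, edgeR adjusted p = 0.795).

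Genes with a near-silent allele in CTR were then listed. The paternal share was above 90% in both CTR libraries for 48 genes, of which 8 were on the noncanonical or imprinted lists, and the maternal share for 96 genes, of which 8 were on those lists. This choice by the CTR values keeps the other allele below 10% in CTR, so the counts that follow describe the matKO libraries and make no comparison with CTR. The other allele reached 10% in at least 1 matKO library for 7 of the 8 listed and 9 of the 40 other paternally biased genes. Among the maternally biased genes it did so for 1 of the 8 listed, H19, and 14 of the 88 others.

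Single libraries that stood apart were listed among the 3787 genes with at least 100 allele reads in each library. A gene was listed when its scaled share in a matKO library lay at least 20 points from both CTR libraries, a rule chosen after the values were seen. This held for 30 genes (0.792%), 15 towards each allele, and for 15, 7, 13 and 11 genes in replicates 1 to 4. The 2 CTR libraries differed by that much from each other for 14 genes. Of the 30 genes, 18 were apart in 1 matKO library only and 1, Thoc1, in all 4. Imprinted lists held 7 of the 30, which was 41.2% of the 17 listed genes at that depth, beside 0.610% of the 3770 others. The 7 were Gab1, Sfmbt2, Jade1, Slc38a4, Peg10, Sgce and H19.

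Among the 23 genes off the lists, which include the called Thoc1 and Pcgf6, Bnip3, a mitophagy receptor, went from 52.6% and 53.7% paternal in CTR to 99.9% and 100% in matKO replicates 1 and 3, with 51.2% and 55.7% in replicates 2 and 4. Tmem242 was at 76.4% in replicate 3 and at 44.5% to 47.9% elsewhere. These values lay far from CTR in 1 or 2 libraries and close to it in others of the same genotype.

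Thg1l, Wdfy1 and Perp were each apart in 2 matKO libraries. Thg1l, which adds a guanosine to histidine tRNA, had 75.5% and 71.6% in CTR, 76.9% and 78.7% in replicates 1 and 2, and 31.4% and 27.5% in replicates 3 and 4. Wdfy1 had 84.4% and 88.4% in CTR and 42.9% and 51.7% in replicates 3 and 4, with 82.8% and 91.8% in the other 2. Perp, a desmosomal p53 target, had 49.6% and 57.3% in CTR and 19.1% and 25.1% in replicates 1 and 2. Elf5, a transcription factor of trophoblast stem cells, had 68.2% and 68.5% in CTR, 72.4% and 71.2% in replicates 1 and 2, 53.1% in replicate 3 and 47.9% in replicate 4, where alone it was apart. Before scaling, replicate 3 had 161 paternal beside 116 maternal reads of Wdfy1 and 1325 beside 635 of Elf5. In CTR Elf5 had 866 and 1124 paternal beside 428 and 546 maternal reads. None of these 6 genes (Bnip3, Tmem242, Thg1l, Wdfy1, Perp and Elf5) passed in edgeR, and they were chosen after their values were seen. The promoter windows of 19 of the 30 genes had a median of 9 CG, beside 17 for the set.

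Polycomb genes come next, since PRC1 and PRC2 place the marks of noncanonical imprinting. The PRC1 list had 21 members in the set, of which 1, Pcgf6, passed (background 0.0819%), 15 lay towards the maternal and 6 towards the paternal allele, and the median difference was −1.53 points. L3mbtl2, a subunit of the PCGF6 complex, had 39.8% and 44.4% in CTR and 30.9%, 35.7%, 26.7% and 32.4% in matKO, with no overlap, as for 15% of all genes (log2 −0.68, SE 0.18, unadjusted p = 0.000749, edgeR adjusted p = 0.293). Bmi1, the PCGF4 subunit of canonical PRC1, had 58.1% and 69.8% in CTR and 38.5% to 51.2% in matKO (adjusted p = 0.645 in edgeR). Phc2, another canonical subunit, had 53.6% and 56.0% against 33.2% to 48.2% (adjusted p = 0.759 in edgeR).

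The PRC2 list had 8 members in the set and 0 calls (background 0.0819%, at which 0 of 8 says little), with a median of 2.03 points. Eed, which binds the mark, had 53.0% and 51.5% in CTR and 51.5% to 60.5% in matKO. Ezh2, the methyltransferase, had 32.1% and 31.0% against 31.2% to 36.0%, and Suz12 35.1% and 39.5% against 36.6% to 44.0%. Phf19, an accessory subunit, had 44.8% in each CTR library and 45.2% to 56.3% in matKO. Over the 8 genes the group means differed by −1.85 to 5.31 points.

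Genes that write, read or protect DNA methylation had 10 members in the set, 0 calls (background 0.0819%) and a median of 0.0617 points. Dnmt3l, a cofactor of de novo methylation, had 27.6% and 39.2% in CTR and 34.8% to 42.6% in matKO. Dnmt1, the maintenance enzyme, had 50.8% and 49.9% against 48.6% to 58.4%. Zfp445, an imprint protector, had 59.8% and 48.7% against 42.8% to 52.7%. Trim28, its corepressor, had 51.0% and 51.0% against 51.3% to 52.3%, at a depth of at least 1049 reads per library.

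Trophoblast genes were examined because their summed levels differed. The ExE list had 12 members in the set, 0 calls (background 0.0819%) and a median of 0.643 points. Fgfr2, the FGF receptor of trophoblast stem cells, had 57.5% and 57.7% in CTR and 44.8%, 52.1%, 49.5% and 52.4% in matKO, with no overlap, as for 15% of all genes (log2 −0.47, SE 0.16, edgeR adjusted p = 0.526). Cdh1, the epithelial cadherin, had 44.7% and 41.9% against 44.7% to 53.0%, Eomes 53.5% and 54.7% against 47.9% to 53.8%, and Id2 46.8% and 48.7% against 46.2% to 47.1%. The ectoplacental cone list had 4 members in the set and 0 calls (background 0.0819%); among them Hand1, a trophoblast transcription factor, had 33.8% and 49.7% in CTR and 29.1% to 43.2% in matKO. Ascl2 and Phlda2, also on this list, are described above.

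Which allele carried a change was read from a fit of each allele against all allele reads of the library. Maternal counts passed for 120 genes (1.97%), 44 higher (0.721%) and 76 lower (1.25%), and paternal counts for 108 (1.77%), 96 higher (1.57%) and 12 lower. This fit does not remove the autosomal paternal excess of matKO replicate 3 (64.9%), which enters with low maternal and high paternal counts. The part of this excess in the direction of the calls was not tested. In edgeR the maternal allele was higher for Thoc1 (log2 5.46, SE 0.53, adjusted p = 1.12e-20), Platr20 (3.02), Jade1 (1.77, adjusted p = 3.51e-05), Slc38a4 (6.13, adjusted p = 5.15e-11), Smoc1 (3.50), Mest (3.57) and Peg3, while Pcgf6 was lower on the maternal allele (−1.34, SE 0.27, adjusted p = 2.00e-04). Maternal levels were also lower in edgeR for Phlda2 (−1.69, adjusted p = 8.10e-08), Slc22a18 (−1.62, adjusted p = 0.000444), Ascl2 (−1.30, adjusted p = 0.000105) and Cdkn1c (−1.21, adjusted p = 0.00125). Paternal levels of these 4 genes did not pass in edgeR (adjusted p = 0.220 to 0.952). In edgeR the paternal allele of Thoc1, Jade1, Slc38a4, Smoc1 and Pcgf6 did not pass (adjusted p = 0.416 to 0.967), and that of Mest was higher (1.61, adjusted p = 0.000305). These counts depend on single libraries: they were 9 and 8 without CTR replicate 2, 48 and 49 without matKO replicate 1, and 38 and 40 without matKO replicate 3. With each allele's own total as the offset, an alternative chosen after seeing the data, 6 and 0 genes passed in edgeR (768 and 773 at an unadjusted p under 0.05). Thoc1 (adjusted p = 1.04e-05) and Pcgf6 (0.00557) were among the 6, while Jade1 (0.146), Slc38a4 (0.205), Smoc1 (0.137), Platr20 (0.0574), Mest (0.116) and Peg3 (0.253) were not. Nor were Slc22a18 (0.274), Cdkn1c (0.339), Phlda2 (0.479) and Ascl2 (0.524).

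The same contrast in morulae gave 0 calls among 5050 genes in edgeR (0%), with 377 genes at an unadjusted p under 0.05. Jade1 had 80.5% and 80.6% paternal in CTR morulae and 63.1% and 57.3% in matKO, a shift of −1.46 (SE 0.24). Sfmbt2 had 99.2% and 100% in CTR and 83.4% and 85.4% in both matKO morula libraries. Platr20 had 88.8% and 67.9% against 52.6% and 50.5%. Slc38a4 differed by less, at 97.7% and 100% against 95.2% and 97.4%, and Smoc1 was less biased at that stage, at 71.1% and 62.6% in CTR and 80.6% and 68.4% in matKO. Pcgf6 went from 38.4% and 43.9% to 54.4% and 59.6%. The difference between the ExE and the morula shift did not pass for any of the 5 noncanonical genes, Platr20, Pcgf6 or Acaa2 (edgeR adjusted p = 0.688 to 0.999). It was 0.75 for Sfmbt2 (SE 14.9), −5.05 for Slc38a4 (SE 7.63) and −5.00 for Smoc1 (SE 2.25). With SEs of this size the lack of a call does not show that the 2 stages had equal shifts.

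The difference between the stages passed for 14 genes (0.277% of 5050), 6 with the higher value in ExE (0.119%) and 8 with the lower (0.158%). Thoc1 had the smallest p (difference −5.12, SE 0.44, edgeR adjusted p = 3.99e-06): its CTR share was 61.1% and 48.5% in morulae. Tmem50b was the other gene called in ExE itself (0.84, SE 0.15, edgeR adjusted p = 0.012), from 24.3% and 26.2% paternal in CTR morulae to 20.7% and 23.0% in matKO.

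Of the others, 4 are named by the smallest p for this difference. Sfxn1, a mitochondrial serine transporter, had 59.0% and 58.9% in CTR morulae and 24.1% and 23.1% in matKO, but 47.5% to 50.2% in all 6 ExE libraries (difference 2.16, SE 0.20, edgeR adjusted p = 4.05e-06). Asns, asparagine synthetase, had 67.6% and 72.0% against 52.5% and 50.5% in morulae and 46.2% to 53.5% in ExE (1.38, SE 0.18). Rab8a, a vesicle transport GTPase (chr8:72161200-72181366), had 46.4% and 50.2% against 72.3% and 75.0% in morulae and 50.7% to 57.3% in ExE (−1.54, SE 0.21). Fam32a, near it on the same chromosome (chr8:72219745-72225034), had 50.0% and 52.1% against 76.6% and 72.6% (−1.65, SE 0.23). Cope and Mcm5, both also on chromosome 8, were among the 14 as well (−2.02 and −1.04). Bbx, of the wider noncanonical list, was among the 14 too (2.51, SE 0.42): it had 84.9% and 93.2% against 62.3% and 53.1% in morulae, and a shift of −0.02 in ExE.

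**Figure D4:**
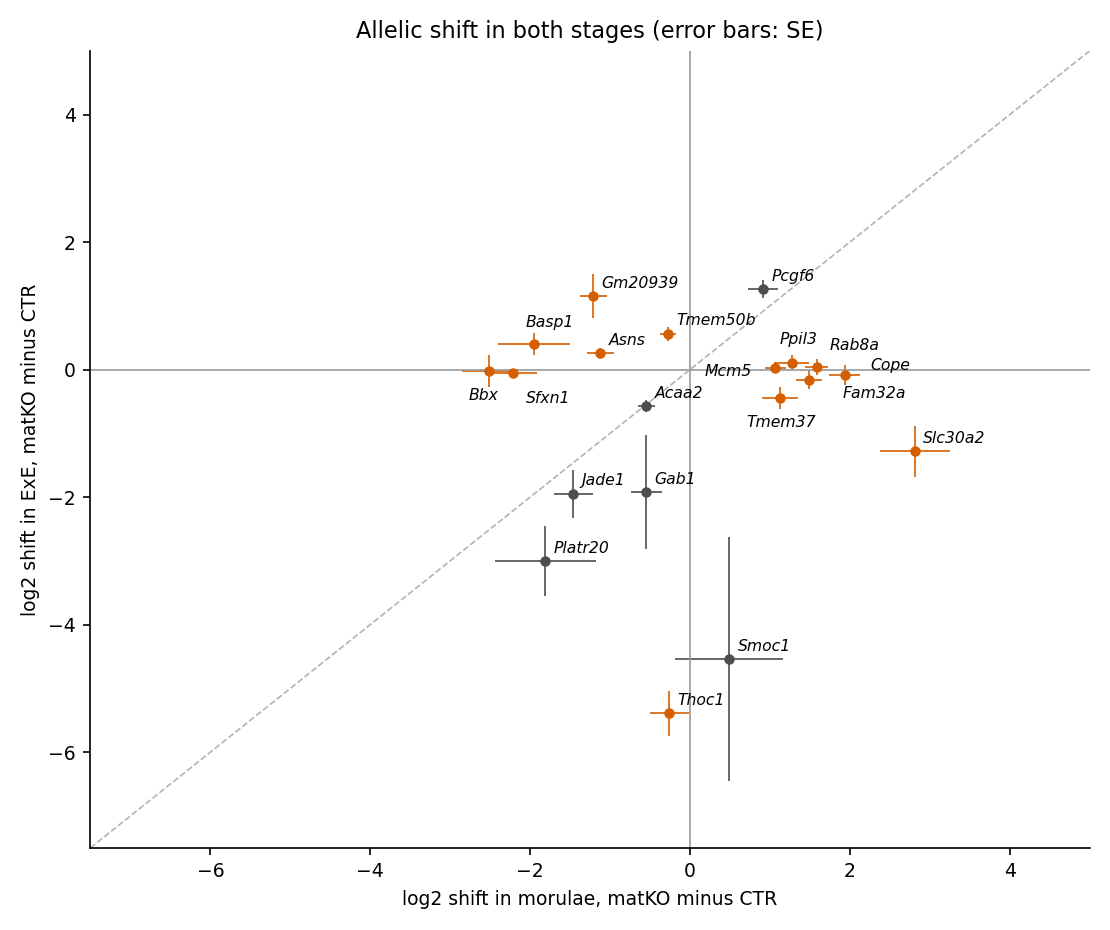
Fitted log2 allelic shift in ExE (vertical axis) against that in morulae (horizontal axis), matKO minus CTR, for the 14 genes whose difference between the stages passed (orange) and 6 others (grey); bars are SE and the dashed line marks equal shifts. Thoc1 lies far below 0 in ExE (−5.39) and near 0 in morulae (−0.26), while Bbx (−2.51), Sfxn1 (−2.21) and Rab8a (1.58) lie away from 0 in morulae only.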

How the data were processed

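The deposited table holds whole-number counts per gene of reads assigned to the maternal or the paternal allele, per the file headers. The labels' protocols describe SMART-Seq v4 cDNA and Nextera XT libraries, which do not mark strand, so overlapping and antisense genes cannot be told apart. The submitters' processing notes list Trim Galore 0.6.4, STAR 2.7.3, RSEM 1.3.1, Bowtie2 2.3.5 and the build mm10, with no role for each. How reads were assigned to an allele is not given in the sources used here. The reciprocal morula libraries and the chromatin samples were not used here. Gene symbols were matched to RefSeq (GRCm38.p6): 23975 by symbol, 81 by synonym and 21 not at all.

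The allelic shift was fitted with edgeR 4.0.16 (R 4.3.3; robust quasi-likelihood test) on 12 allele columns, with terms for library, for allele and for the interaction of allele with genotype. Each column's log autosomal total served as its offset, and calls had a Benjamini-Hochberg adjusted p under 0.05 over all genes tested. Morulae were fitted the same way, and the difference between stages in 1 fit over 10 libraries. On simulated data over 6102 genes, 77% of 2-fold and 98% of 4-fold changes of the ratio were recovered, with 8 false calls of 183; over 5050 genes, the difference between stages recovered 38% and 90%, with 4 false of 132. The maternal and paternal fits had 11 false of 205 and 21 false of 210. The simulation gave all genes the same biological coefficient of variation (0.0819) and each changed gene the same shift in every ExE matKO library. Genes such as Sfmbt2 and Bnip3 differed between matKO libraries, so these rates do not carry over to such genes. Library shares were compared by exact permutation in SciPy 1.17.1. Alternatives covered the scaling, the low-count filter, DESeq2 1.42.0, limma 3.58.1 with pseudocounts of 0.5 and 2, X-linked genes, a replicate block and leaving out each library.

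Named genes were Pcgf1, Pcgf6, the 5 noncanonical genes, the called genes, up to 4 genes with the smallest p of each list and the 5 with the smallest p for the difference from morulae. Others named in the text were chosen after their values were seen. Some genes are not reported here. The members and the 14 lists were chosen with earlier results of these data known. The labels do not say that replicates came from separate animals, so p-values measure only the spread between these samples. Counts of replicate libraries differed by more than sampling noise (chi-square per degree of freedom 8.38 to 17.0), so each library was counted once.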

Additional observations from a re-analysis of the deposited data

Results flagged for a closer look

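Among the 4 matKO libraries, 1 lay far from the other 3 in 3 of the 44 named genes tested, close to the rate of about 1 in 20 that chance gives. These were Sfmbt2 in replicate 4 (53.0% paternal), Zrsr1 in replicate 1 (96.6%, with the others at 100%) and Hand1 in replicate 1 (29.1%, with the others at 41.3% to 43.2%). The Zrsr1 value rests on 4 maternal reads of 111. The unscaled autosomal paternal share of replicate 3 (64.9%) stood apart in the same way. For 6 named genes the allelic shift differed between ExE and morulae in edgeR: Thoc1 (−5.12), Tmem50b (0.84), Sfxn1 (2.16), Asns (1.38), Rab8a (−1.54) and Fam32a (−1.65).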

How the results depend on the processing

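The count of 5 called shifts stayed between 4 and 7 under the other scalings, the other count minimums, DESeq2, edgeR without robust estimation and limma, but the genes changed: 1 of the 4 called without scaling, 2 of the 4 in DESeq2 and 3 of the 5 without robust estimation were among the 5. It was 36 with no filter on low counts, 2 with X-linked genes and 4 to 14 when a library was left out; the cause was not tested. CTR and matKO share 2 replicate numbers, whose libraries did not deviate together (correlations 0.044 and −0.0045). The fit with a replicate block called 65 shifts, 544 maternal and 426 paternal levels. Replicates 3 and 4 exist only in matKO, so their terms take up those 2 libraries whole. The shift then rests on replicates 1 and 2 of each group, which leaves little from which to estimate the spread. The 120 maternal levels became 64 in DESeq2, 6 with the allele's own total, an alternative chosen after seeing the data, and 9 to 122 when a library was left out; the 108 paternal levels became 0 with the own total and 8 to 98. The 14 differences between stages stayed between 10 and 15. A call of a named gene was lost in 19 gene and setting pairs and gained in 17. The gains were 4 each for Jade1 and Slc38a4, 2 each for Peg10, Peg3 and Cdkn1c, and 1 each for Smoc1, Mest and L3mbtl2. The sign of the shift changed in 20 gene and setting pairs and the call was the same in 817. Without scaling it became 0.0065 for Mbnl2, 0.015 for Eomes, 0.17 for Id2, 0.12 for Hand1, 0.18 for Sfxn1 and 0.082 for Fam32a. With the replicate block, and so without weight on matKO replicates 3 and 4, it became 0.054 for Sfmbt2, 0.071 for Mbnl2, −0.18 for Ascl2 and −0.52 for Phlda2. Phlda2 was also −0.34 in DESeq2, −0.41 and −0.30 in limma with pseudocounts of 0.5 and 2 and −0.075 with X-linked genes. With 1 library left out, Mbnl2 ran from −0.51 to 0.012, Zrsr1 from −3.41 to 0.18 (no maternal read was left, so this is no measured shift), Hand1 from −0.58 to 0.37, Phlda2 from −0.50 to 0.59 and Rab8a from −0.072 to 0.15. None of these genes passed in the ExE test reported above. Where 1 CTR library remained, its spread was taken from the matKO libraries. At 20 allele reads only large shifts can be seen.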
